A study of Mus musculus with 16 samples.

Results

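Mouse fallopian tubes exposed to progesterone in vitro were sampled after 20 min and after 2 h, and the change between these times is described here. It rests on 8 of the 16 samples of the series, 4 at each time, taken by their labels for treatment and time. The tissue came from immature female C57BL/6N mice, 3.5 to 5 weeks old. Whole tubes were opened lengthwise, cut into pieces and pooled, 6 tubes to a sample, in a handling medium (G-MOPS) with 100 nmol/L progesterone and 0.01% ethanol. The 8 control samples, which received the ethanol alone for 20 min or 2 h, are set beside them where a difference is at issue. Tissue that had not been incubated was not analysed here, so each change is one between a pair of times in the dish. Samples carry the codes of their labels, 27n, 26n, 12n and 22ob at 20 min and 6d, 19n, 30o and 15o at 2 h, and values per sample are given in this order throughout. No code occurs at both times.

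The fallopian tube moves the oocyte and the early embryo by the beat of ciliated cells and by contraction of smooth muscle, and its secretory cells make the fluid around them. Progesterone acts on transcription through a nuclear receptor encoded by Pgr, and it also slows the cilia of this tissue within minutes. Dissection and transfer of a tissue into medium are themselves known to start a course of gene expression, in which immediate early transcription factors such as Fos and Egr1 come first, and cytokines, growth factors, proteases and feedback inhibitors follow.

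RNA was measured on Illumina MouseRef-8 v2 BeadChips, 1 array per sample, and is given as log2 of the quantile-normalised signal intensity. Of 25697 probes, 16848 (65.6%) had a signal above the median of the negative controls on at least 13 of the 16 arrays and were tested, and they stand for 12426 genes. Between 13222 and 14267 probes were detected on a progesterone array. The median signal before normalisation was 131.5 to 160.5 at 20 min and 124.8 to 129.1 at 2 h, so that the groups did not overlap (exact permutation test, two-sided, p = 0.0286, the smallest that 4 against 4 arrays allow). Correlations of log2 signals were 0.9896 to 0.9929 among arrays of 20 min, 0.9774 to 0.9927 among those of 2 h and 0.9644 to 0.9764 between the times. All 14 markers of ciliated cells with a probe were detected on all 8 arrays, as were Ovgp1 and Pax8 of secretory cells and 14 of 17 markers of smooth muscle. Of 13 markers of ovary, 0 were detected on all 8 arrays.

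At 2 h, 2524 probes (15% of those tested) differed from 20 min at an adjusted p of at most 0.05 in limma with Benjamini-Hochberg adjustment, and these are called changed. Of them 1212 were higher and 1312 lower at 2 h. The largest changes were rises: at 2-fold or more, 198 called probes were higher and 50 lower, and at 4-fold or more, 35 and 0. In 2280 of the called probes the 4 values of one time did not overlap with those of the other, which held for 19.1% of all tested probes. With 1 probe standing for each gene, 16.3% of genes were called, 943 of them higher (7.59%) and 1088 lower (8.76%), and the median difference over all genes was -0.02. The genes called lower numbered 717 without 22ob and 645 without 30o, and those called higher 742 and 719. With arrays centred on their medians in place of quantile normalisation, 752 probes were called higher and 4179 lower, so that the share of higher calls went from 48% to 15.3%, and the median over all genes was -0.10.

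**Figure D1:**
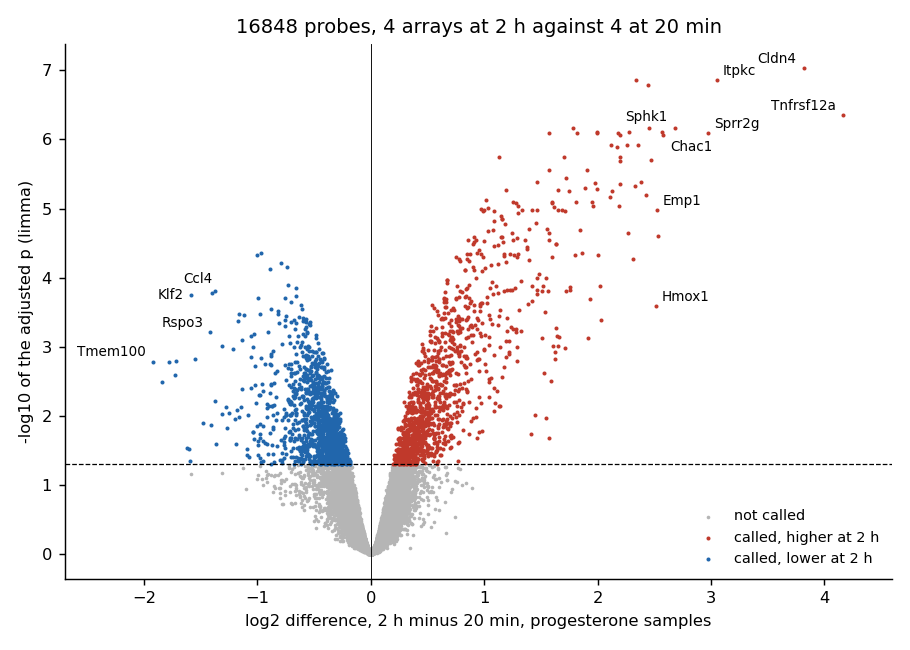
Difference in log2 signal between 2 h and 20 min of progesterone (horizontal axis) against -log10 of the adjusted p (vertical axis) for each tested probe; red and blue points were called higher and lower at 2 h and grey points were not called. The rises reach 4.17 (Tnfrsf12a) and the falls -1.92 (Tmem100).

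The largest rise was that of Tnfrsf12a, the receptor of the cytokine TWEAK, which is known to be induced in injured tissue. Its log2 signal was 7.66, 8.11, 7.70 and 7.70 at 20 min and 12.31, 11.62, 12.07 and 11.82 at 2 h. Each sample of 2 h lay above each of 20 min, and the difference was 4.17 ± 0.15 (SE), or 18-fold. Cldn4, a claudin of the tight junctions between epithelial cells, came next with 9.14, 8.89, 8.89 and 8.65 at 20 min and 12.79, 12.76, 12.57 and 12.72 at 2 h. The samples of 2 h lay close together, and the rise was 3.82 ± 0.10, or 14.1-fold.

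Among the other large rises were enzymes of lipid and inositol signals and proteins of barrier epithelia. Itpkc, a kinase of inositol trisphosphate, rose by 3.06 ± 0.09, and Sphk1, which makes sphingosine 1-phosphate, by 2.68 ± 0.11. Sprr2g, of the small proline-rich proteins of barrier epithelia, rose by 2.98 ± 0.13; its family has closely similar members, so that its signal may be partly theirs. Emp1, an epithelial membrane protein, rose by 2.52 ± 0.17. The list of the 10 largest rises was completed by Chac1 and Hmox1, described below, and by NDRL (2.56 ± 0.10) and LOC100047934 (2.54 ± 0.19), which are named here as the array names them. Whether either is an older name of a gene given elsewhere here was not checked. A second, dimmer probe of Sphk1 had a difference of 0.14 and was not called (adjusted p = 0.151).

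Of 19 tested genes of proteases, the plasminogen system and injury-related matrix, 7 rose and 1 fell, with a median difference of 0.25. The lower one was the protease Adamts15 (-0.30), and 4 were lower without 6d, 5 with median-centred arrays and 0 when a score of stroma or of smooth muscle markers (described below) was a covariate. Plaur, the receptor of urokinase, had log2 signals of 7.20, 7.10, 7.06 and 6.94 at 20 min and 9.44, 9.32, 9.45 and 9.44 at 2 h. Its samples of 2 h stood more than 2 log2 units above those of 20 min, where it was detected in 3 of 4, and the rise was 2.34 ± 0.07. Mmp13, a collagenase, rose by 2.19 ± 0.14, and of its 2 dimmer probes 1 was called (0.30) and 1 was not (0.01). Adamts4, an aggrecanase, rose by 1.91 ± 0.24, Timp1, an inhibitor of metalloproteases, by 1.86 ± 0.15, and Has1, which makes hyaluronan, by 1.50 ± 0.19. The inhibitors Timp3 and Timp2 had differences of -0.92 and -0.75 and were not called.

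The promoters of the risen genes were searched for the element of AP-1, the factor that Fos and Jun proteins form and that is known to act on genes of wound repair. It was taken as TGANTCA, read on both strands in the 250 bases before the transcription start (RefSeq, build GRCm38.p6). Of 159 genes called at least 2-fold higher, 105 had a promoter in the reference table, and 25 of these (23.8%) held the element, against 6.52% of 7865 tested genes and 7.82% of 27025 genes in the table. Without a fold limit, 10.2% of 596 genes with a promoter that were called higher held it, and 4.62% of 692 called lower. Of 25 with a promoter that were called at least 2-fold lower, 8% held it. A match describes the letters in this window, and binding was not measured. The promoters of Cldn4, Plaur, Mmp13 and Srxn1 are shown, 5′ to 3′ on the strand of the gene, because these genes rose over 4-fold and hold the element, which stands in capitals. It began 240 and 158 bases before the start in Cldn4, 69 in Plaur, 35 in Mmp13, and 102 and 45 in Srxn1.
Cldn4, chr5:134946935-134947184, minus strand: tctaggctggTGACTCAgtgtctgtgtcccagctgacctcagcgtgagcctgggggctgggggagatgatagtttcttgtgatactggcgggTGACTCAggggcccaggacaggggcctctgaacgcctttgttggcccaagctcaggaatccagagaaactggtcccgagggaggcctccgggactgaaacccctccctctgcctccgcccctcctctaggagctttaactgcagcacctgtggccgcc
Plaur, chr7:24462233-24462482, plus strand: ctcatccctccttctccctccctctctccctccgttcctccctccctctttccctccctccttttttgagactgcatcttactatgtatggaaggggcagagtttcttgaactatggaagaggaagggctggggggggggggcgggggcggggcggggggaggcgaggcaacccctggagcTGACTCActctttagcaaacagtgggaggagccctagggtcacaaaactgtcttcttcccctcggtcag
Mmp13, chr9:7272264-7272513, plus strand: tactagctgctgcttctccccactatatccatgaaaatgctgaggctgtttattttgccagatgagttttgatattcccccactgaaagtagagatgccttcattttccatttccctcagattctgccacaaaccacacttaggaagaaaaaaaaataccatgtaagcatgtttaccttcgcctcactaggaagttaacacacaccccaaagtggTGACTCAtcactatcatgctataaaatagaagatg
Srxn1, chr2:152105274-152105523, plus strand: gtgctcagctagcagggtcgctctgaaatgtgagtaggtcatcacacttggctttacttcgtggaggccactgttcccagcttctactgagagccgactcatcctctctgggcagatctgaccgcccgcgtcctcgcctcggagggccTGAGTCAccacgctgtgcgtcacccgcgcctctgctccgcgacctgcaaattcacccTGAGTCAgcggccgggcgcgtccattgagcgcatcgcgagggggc

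Genes of endoplasmic reticulum stress and the integrated stress response mostly passed the test. Of 17 tested, 10 rose and 0 fell (58.8%, against 16.3% called over all genes), with a median of 0.68. In the alternative settings 7 to 10 rose, with medians of 0.40 to 0.74. In this response the transcription factor Atf4 is known to act, with Ddit3 (CHOP), on Chac1, which degrades glutathione, and on Trib3, an inhibitory pseudokinase. Chac1 lay between 7.85 to 8.35 at 20 min and 10.48 to 10.83 at 2 h, with no overlap, and rose by 2.58 ± 0.12. Trib3 rose by 2.17 ± 0.10, Ddit3 by 1.76 ± 0.17 and Atf4 by 1.33 ± 0.12; second probes of Ddit3 and Atf4 gave 1.53 and 1.57, and that of Trib3, which was dimmer, 0.30. The chaperone Hspa5 (BiP) rose by 1.14 ± 0.12 and asparagine synthetase, Asns, by 0.98 ± 0.11, whereas the chaperones Hsp90b1 and Pdia4 had differences of -0.03 and -0.09.

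The promoter of Chac1 is shown because it holds the composite element of ATF4 and C/EBP factors, taken as TGATG, any base and AA on either strand and here read on the opposite strand, 193 bases before the start. Capitals mark it. Of the 10 risen genes of the list, 3 (Asns, Chac1 and Herpud1) held it, against 2.8% of the tested genes.
Chac1, chr2:119350992-119351241, plus strand: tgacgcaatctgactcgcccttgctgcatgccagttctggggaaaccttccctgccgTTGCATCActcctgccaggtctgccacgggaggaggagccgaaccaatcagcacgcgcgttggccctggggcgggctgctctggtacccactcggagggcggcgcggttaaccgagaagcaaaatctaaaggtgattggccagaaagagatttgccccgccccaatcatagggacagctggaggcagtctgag

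Of 18 genes of oxidative stress, 9 rose and 0 fell, with a median of 0.41. Hmox1, which degrades heme, measured 7.41, 7.06, 7.21 and 7.33 at 20 min and 10.52, 8.93, 9.79 and 9.85 at 2 h. The groups were apart, but the samples of 2 h spread over more than 1 log2 unit, with 6d the highest and 19n the lowest, and the rise was 2.52 ± 0.27. Srxn1, which repairs oxidised peroxiredoxins, measured 8.43, 8.29, 8.14 and 8.13 at 20 min and 11.07, 10.20, 10.34 and 10.46 at 2 h, again with 6d the highest and 19n the lowest, and rose by 2.27 ± 0.17; its other probes gave 1.28 and 2.00. The metallothionein Mt2 rose by 0.95 ± 0.11 and the autophagy receptor Sqstm1 by 0.89 ± 0.11. Nqo1, a well-known target of the antioxidant factor Nfe2l2, had a difference of 0.17 and was not called.

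The cytosolic heat shock genes were called about as often as all genes, with 4 of 23 higher (17.4%) and a median of -0.01. Hspb8, a small heat shock protein, rose by 1.25 ± 0.10, and Bag3, its partner, by 0.84 ± 0.14. Hsp90aa1 was higher by 0.58 ± 0.15, a call that was lost without 27n, 26n, 12n, 30o or 15o (log2 difference 0.46 to 0.56, adjusted p 0.0789 to 0.0879). Hspb1 was higher by 0.44 ± 0.11, and that call was lost without 15o (log2 difference 0.42, adjusted p 0.0521), so that 2 of the list were higher without 15o, and 1 was lower without 6d. The inducible chaperone Hspa1a had a difference of -0.42 and was not called.

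**Figure D2:**
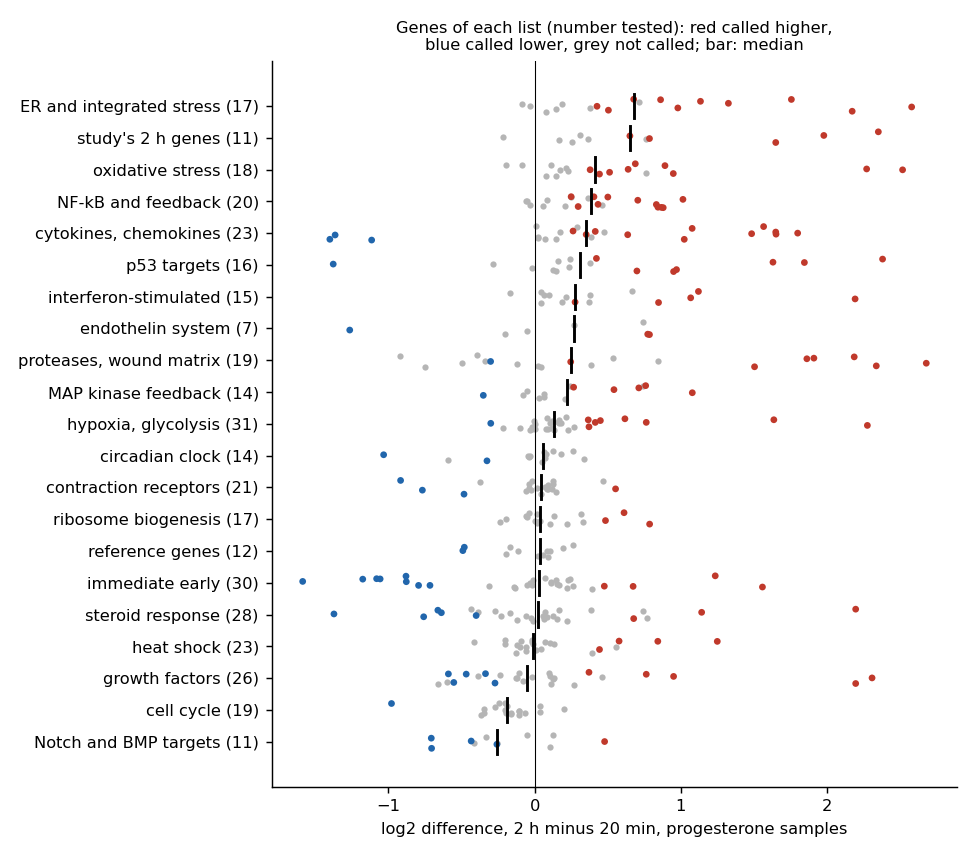
Difference in log2 signal between 2 h and 20 min of progesterone (horizontal axis) for each tested gene of 21 functional lists, ordered by their medians; red and blue points were called higher and lower and grey points were not called. The medians run from -0.26 (targets of Notch and BMP) to 0.68 (endoplasmic reticulum stress); in other settings, such as a background correction or a tissue score as covariate, other lists have the extreme medians.

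Among 23 cytokines, chemokines and adhesion molecules, 11 rose and 3 fell (60.9%, against 16.3% called over all genes), with a median of 0.35. In the alternative settings 8 to 15 rose. Ccl5 and Ccl7 were among the higher ones, but lost their calls without 26n, 12n, 6d or 15o, among others (log2 difference 0.22 to 0.37, limma adjusted p 0.0594 to 0.102). Cxcl10, a chemokine of lymphocytes, rose by 1.80 ± 0.15. Il6, a cytokine of the acute phase, measured 7.13, 6.91, 6.93 and 6.96 at 20 min and 8.42, 8.89, 8.74 and 8.49 at 2 h. It was detected in 2 of 4 samples at 20 min and in all at 2 h, and rose by 1.65 ± 0.11. Cxcl1, a chemokine of neutrophils, measured 9.76, 9.45, 9.99 and 9.25 at 20 min and 11.39, 11.70, 11.28 and 10.67 at 2 h, with the groups apart and 15o the lowest of 2 h, and rose by 1.65 ± 0.22. The adhesion molecule Icam1 rose by 1.49 ± 0.13. Selp, a selectin of endothelium and platelets, was higher by 1.57 ± 0.38, a call lost without 27n or 26n (log2 difference 1.46 to 1.51, adjusted p 0.0566 to 0.0582). Tnf and Vcam1 had differences of 0.07 and 0.29 and were not called.

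The chemokines Ccl4, Ccl3 and Cxcl12 were lower at 2 h. Ccl4, a chemokine of macrophages, measured 10.56, 10.15, 9.96 and 10.31 at 20 min and 8.88, 8.88, 8.56 and 9.07 at 2 h, with no overlap, and fell by 1.40 ± 0.14 on the log2 scale; a second probe gave -0.88. Ccl3, of the same kind, fell by 1.11 ± 0.12. Cxcl12, a chemokine of stroma, was lower (-1.36), but the call was lost without 27n, 26n, 22ob or 30o (log2 difference -1.39 to -1.22, adjusted p 0.054 to 0.0784). Of 17 markers of leukocytes, 2 rose and 0 fell (11.8%, against 16.3% called over all genes). Cd14, a receptor of bacterial products, rose by 1.25 ± 0.09 and Cd68, a lysosomal protein of macrophages, by 0.80 ± 0.11. Csf1r, a receptor that defines macrophages, had a difference of -0.12, and Ptprc, found on all leukocytes, was detected on none of the 8 arrays.

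Of 20 genes of NF-kB and its feedback, 11 rose and 0 fell, with a median of 0.39. The subunits Nfkb1 and Rela rose by 0.88 ± 0.10 and 0.83 ± 0.07, and the inhibitors Tnfaip3 (A20) and Nfkbia by 0.87 ± 0.08 and 0.71 ± 0.11. Tnfaip2, a cytokine-induced gene, rose by 1.01 ± 0.15, with all 3 probes called. Bcl3, a nuclear partner of NF-kB, was not above background on any array of 20 min and was detected on all 4 of 2 h, so that it was at least 1.73-fold higher (adjusted p = 5.34e-05). That bound sets its mean at 2 h against the lowest signal detected on each array of 20 min or its own signal there, whichever was higher.

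Of 15 interferon-stimulated genes, 5 rose and 0 fell (33.3%, against 16.3% called over all genes). Gbp2, a guanylate-binding protein, rose by 2.19 ± 0.12, Oasl1 by 1.12 ± 0.13, the antiviral Rsad2 by 1.07 ± 0.12 and Gbp3 by 0.85 ± 0.10. Mx2, another antiviral gene, was higher by 0.28 ± 0.07, a call lost without 26n, 12n, 19n or 30o (log2 difference 0.24 to 0.27, adjusted p 0.063 to 0.0719).

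Of 16 targets of p53, 7 rose and 1 fell (50%, against 16.3% called over all genes). The death receptor Fas rose by 2.38 ± 0.13, the cell cycle inhibitor Cdkn1a by 1.85 ± 0.13, with all 3 probes called, the kinase Plk3 by 1.63 ± 0.13 and Mdm2, the inhibitor of p53, by 0.97 ± 0.10. Sesn1, a stress protein, moved the other way. It measured 10.40, 10.24, 10.72 and 10.69 at 20 min and 8.81, 9.15, 9.26 and 9.31 at 2 h, with no overlap, and fell by 1.38 ± 0.14; without 12n, 2 of the list were lower.

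Ligands of the EGF receptor were divided. Areg (amphiregulin), which progesterone is known to induce in the uterus, measured 10.10, 10.40, 10.26 and 10.14 at 20 min and 12.37, 12.24, 12.64 and 12.42 at 2 h. The groups were about 2 log2 units apart, and the rise was 2.20 ± 0.10, or 4.59-fold. In the controls Areg rose by 2.42. Hbegf rose by 2.31 ± 0.20, while Tgfa and Btc had differences of -0.10 and 0.10 and were not called, and Egf was not above background on any of the 8 arrays. Gdf15, a stress-induced ligand of the TGF-beta family, rose by 0.95 ± 0.15, and Vegfa, which drives vessel growth, by 0.76 ± 0.15. Of 26 growth factors 5 were higher and 5 lower (38.5%, against 16.3% called over all genes). Inhba, a subunit of activin, was the other one higher (0.37 ± 0.07). The lower ones were the vessel and mesenchyme factors Vegfc (-0.47) and Pdgfb (-0.34), Bmp4 (-0.55), and the TGF-beta genes Tgfb3 (-0.59) and Tgfb2 (-0.27). Of these only Vegfc was called without each of the 8 samples in turn. The number lower was 2 without 27n, 22ob, 19n or 30o, 1 without 26n, 0 when either of these scores was a covariate, and 10 with median-centred arrays.

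The promoter of Areg is shown with the full cAMP response element, TGACGTCA, in capitals, 61 bases before the start, as the gene with the largest rise in the list of steroid-responsive genes. The element was searched on both strands and was present in 5.71% of the promoters of genes called at least 2-fold higher and in 2.7% of those tested.
Areg, chr5:91139349-91139598, plus strand: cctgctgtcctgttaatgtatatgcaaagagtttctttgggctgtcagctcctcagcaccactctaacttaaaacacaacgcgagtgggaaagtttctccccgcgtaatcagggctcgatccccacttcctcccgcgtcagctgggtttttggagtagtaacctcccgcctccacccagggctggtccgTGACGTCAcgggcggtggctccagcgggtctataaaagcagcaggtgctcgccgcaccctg

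Of 14 genes that restrain MAP kinases, 5 were higher and 1 lower (42.9%, against 16.3% called over all genes), all of them phosphatases. Dusp16 rose by 1.08 ± 0.08, Dusp6 by 0.76 ± 0.09 and Dusp8 by 0.54 ± 0.06. Dusp14 was higher by 0.71 ± 0.15, and was not called when the smooth muscle or the stroma score was a covariate (adjusted p = 0.0694 and 0.0674). Dusp10 was higher by 0.27 ± 0.07, a call lost without 27n, 12n, 22ob, 6d, 19n or 30o (log2 difference 0.21 to 0.28, adjusted p 0.0587 to 0.0875). Dusp1, an immediate early phosphatase and the lower member, had -0.35, and its call was lost without 27n, 26n, 12n, 22ob or 30o (log2 difference -0.38 to -0.31, adjusted p 0.0581 to 0.0906). The Sprouty gene Spry4 had a difference of 0.06 and was not called.

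The immediate early genes themselves were split. Of 30 tested, 4 were higher and 8 lower at 2 h (40%, against 16.3% called over all genes), and the median was 0.03. Klf2, a factor of vessel endothelium, measured 11.73, 11.42, 11.15 and 11.09 at 20 min and 9.81, 9.41, 9.79 and 10.02 at 2 h, with no overlap, and fell by 1.59 ± 0.16. Jun, an AP-1 subunit, measured 11.09, 11.14, 10.68 and 10.62 at 20 min and 9.81, 9.64, 9.50 and 9.88 at 2 h, again with no overlap, and fell by 1.18 ± 0.14. The AP-1 subunits Fos and Junb and the zinc finger factor Egr1 fell by 1.06 ± 0.13, 0.88 ± 0.15 and 1.08 ± 0.22. Fosb was lower (-0.79), a call lost without 27n, 26n or 30o (log2 difference -0.77 to -0.68, adjusted p 0.0586 to 0.0652). Zfp36, which destabilises the messages of cytokines, and the small GTPase Rhob fell by 0.72 ± 0.15 and 0.88 ± 0.12. With the stroma score as a covariate, 5 of the list were lower, and Egr1, at -0.62, was not called (adjusted p = 0.109). Maff, a small Maf protein, rose by 1.56 ± 0.15, and Csrnp1, a nuclear protein named Axud1 on the array, by 1.24 ± 0.15. Gadd45b, a stress gene, was higher by 0.67 ± 0.15, and was not called with median-centred arrays (0.40, adjusted p = 0.0634), the smooth muscle score (adjusted p = 0.0848) or the stroma score (adjusted p = 0.119). The survival gene Mcl1 was higher by 0.48 ± 0.12, a call lost without 27n, 26n or 15o (log2 difference 0.42 to 0.48, adjusted p 0.0542 to 0.0646). Myc, Atf3 and Nr4a2 had differences of 0.17, -0.01 and 0.07.

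The 10 largest falls without overlap were Tmem100, Osr2, Gdf10, Ano4, Hoxa5, Klf2, Hoxc6, Mrvi1, Rspo3 and Ccl4, in this order. Osr2, Hoxa5 and Hoxc6 are transcription factors that pattern mesenchyme, Gdf10 is a ligand of the BMP family, Rspo3 strengthens Wnt signals, and Mrvi1 takes part in the relaxation of smooth muscle. Tmem100, a membrane protein of vessels and mesenchyme, measured 10.78, 11.25, 10.40 and 10.97 at 20 min and 9.61, 8.20, 8.76 and 9.17 at 2 h, and fell by 1.92 ± 0.28. Osr2 measured 12.28, 12.37, 11.86 and 12.02 at 20 min and 11.14, 9.39, 10.21 and 10.43 at 2 h, and fell by 1.84 ± 0.30. Sample 6d was the highest and 19n the lowest of 2 h in both. The same order of 6d and 19n held for Gdf10, Ano4, Hoxa5, Hoxc6, Mrvi1 and Rspo3, but Klf2 had its highest value in 15o, and so had Ccl4.

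Markers of stroma and smooth muscle varied between the same samples. Their score is the mean log2 signal of a list's markers on an array, each marker centred over the 16 arrays. For stroma it was 0.58, 0.56, -0.17 and 0.40 at 20 min and 0.30, -0.64, -0.45 and -0.33 at 2 h. For smooth muscle it was 0.37, 0.39, 0.03 and 0.38 at 20 min and 0.31, -0.77, -0.41 and -0.14 at 2 h. In both lists 6d lay within the range of 20 min, so that the groups overlapped. In pooled tissue, fewer cells of a type and less RNA per cell cannot be told apart, and the part of these cell types in the falls was not tested beyond the covariate fits given here.

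Of 12 stroma markers, all had a difference below 0 (median -0.61), and 3 were called lower (25%, against 16.3% called over all genes). These were the collagen gene Col1a1 (-1.60), the proteoglycan Dcn (-0.60) and the growth factor receptor Pdgfrb (-0.42). The number called was 0 without 27n, 26n, 22ob, 19n, 30o or 15o, 5 without 12n, when Dcn was not called, 8 without 6d and 11 with median-centred arrays. Of 16 genes listed as markers of smooth muscle, 2 were called lower (12.5%, against 16.3% called over all genes), and the median was -0.64. Lmod1, which nucleates actin filaments, had -0.76 ± 0.17, and Mybpc1, named 8030451F13Rik on the array, -0.72 ± 0.13. Mybpc1 is a myosin-binding protein known from skeletal muscle, so it does not mark smooth muscle alone. The number called lower in this list was 9 without 6d, as it was with median-centred arrays. The brightest of 4 probes of the actin Acta2 had a difference of -0.58 and was not called, and the other 3 were, down to -1.62.

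With the stroma score as a covariate, 527 of the 1312 lower calls and 741 of the 1212 higher calls were still called, and with the smooth muscle score 604 and 817. With the stroma score the falls of Tmem100, Osr2, Gdf10, Ano4 and Hoxa5 were -1.21, -1.08, -1.10, -1.14 and -1.11 and were still called, and Mrvi1 at -0.67 was not (adjusted p = 0.0955). With the smooth muscle score Mrvi1 was at -0.61 and called (adjusted p = 0.00678). Klf2 at -1.35 and Ccl4 at -1.22 differed less from their values without the score, and the rises of Tnfrsf12a and Cldn4 were 4.45 and 3.88.

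Other calls given here were lost with the scores too. Adamts15, Adra2a, Bmp4, Col1a1, Cxcl12, Dbp, Dcn, Dusp1, Dusp10, Fosb, Gucy1a3, Hpgd, Hsp90aa1, Hspb1, Krt19, Lmod1, Msln, Mx2, Mybpc1, Pdgfb, Pdgfrb, Pgr, Slc2a3, Tgfb2, Tgfb3, Vegfc and Zfp36 were called without a score and with neither of them (adjusted p 0.0556 to 0.444 with smooth muscle, 0.0695 to 0.563 with stroma). Col1a1, Dcn and Pdgfrb enter the stroma score, and Lmod1 and Mybpc1 that of smooth muscle. Losing a call with a score that holds the gene itself was therefore partly built in. The sizes of the differences moved unequally. Hsp90aa1 had 0.61 with smooth muscle and 0.55 with stroma (0.58 without a score), Pgr -0.37 and -0.43 (-0.40), and Dbp -0.80 and -0.94 (-1.03). Col1a1 had -0.51 and -0.26 (-1.60 without a score), and Dcn -0.15 and -0.18 (-0.60). A lost call therefore does not by itself mean a smaller difference. B2m, Nop58 and Selp lost their calls with the stroma score alone (adjusted p 0.0503 to 0.0813). With median-centred arrays and no score, Hsp90aa1, Hspb1, Krt19, Msln, Mx2, Nop58, Nos3 and Tigd2 were not called (adjusted p 0.0581 to 0.246).

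Counts of some lists moved with the scaling as well. With median-centred arrays 7 targets of Notch and BMP were lower and 0 higher, 3 heat shock genes were lower and 2 higher, and 3 genes of hypoxia and glycolysis were lower and 5 higher. In the lists of oxidative stress, NF-kB, interferon and leukocytes 1 gene each was then lower.

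**Figure D3:**
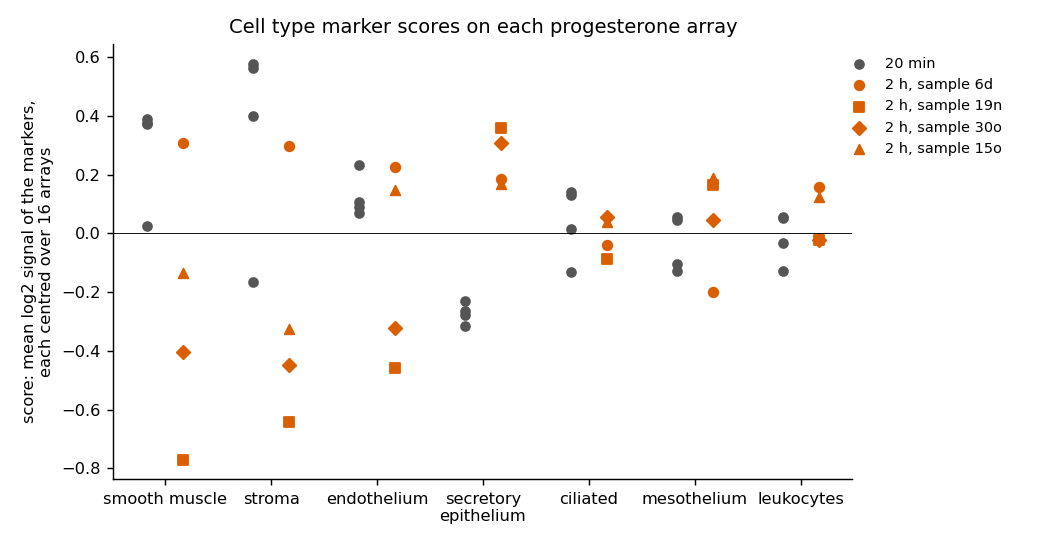
Score of 7 lists of cell type markers (vertical axis, mean log2 signal of the markers, each centred over 16 arrays) on each progesterone array of 20 min (grey) and 2 h (orange). Sample 6d lies within the range of 20 min for smooth muscle (0.31) and stroma (0.30), and the times are apart in the secretory epithelium.

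The markers of secretory and general tubal epithelium were the only one of 12 marker lists whose scores did not overlap between the times, with -0.28, -0.27, -0.23 and -0.32 at 20 min and 0.18, 0.36, 0.31 and 0.17 at 2 h. With median-centred arrays the scores of endothelium did not overlap either. For the secretory list the exact permutation test gave p = 0.0286, the smallest possible, and 0.228 after Benjamini-Hochberg adjustment over the 12 lists. Its members, Cldn4 among them, were chosen with earlier results of these data known, so this p is not independent evidence. The largest difference in this list was that of Cldn4 (3.82), against a median of 0.41. Of 14 genes 7 rose and 1 fell (57.1%, against 16.3% called over all genes). Besides Cldn4 these were the keratins Krt18 (0.97 ± 0.10) and Krt8 (0.67 ± 0.07), the cadherin Cdh1 (0.62 ± 0.07), the surface protein Cd24a (0.64 ± 0.11), the epithelial transcription factor Elf3 (0.63 ± 0.10) and Krt19 (0.47 ± 0.13), whose call was lost without 27n, 26n, 12n, 22ob, 19n or 30o (log2 difference 0.35 to 0.49, adjusted p 0.0551 to 0.106). Ovgp1, the oviductal glycoprotein that defines secretory cells, and their factor Pax8 had differences of -0.12 and 0.20 and were not called, and Msx1 fell by 0.53 ± 0.10; without 19n, 6 were higher and 2 lower. Of 14 markers of ciliated cells, 0 were called by limma (2 with an unadjusted p under 0.05), with differences from -0.27 to 0.25. Without 6d 1 was called lower, and without 15o 2, as with median-centred arrays. The smallest p were those of the dynein Dnahc5 (-0.27) and Ccdc39 (-0.24), which are parts of the axoneme. Foxj1, which drives the formation of motile cilia, had 0.04.

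Genes known to respond to steroid receptors moved both ways. Of 28 tested, 3 rose and 5 fell (28.6%, against 16.3% called over all genes), with a median of 0.02. Without 19n, 6 were higher. Areg, the iron-binding protein Lcn2 (1.14 ± 0.15) and the transcription factor Cebpb (0.68 ± 0.14) rose. Gata2, which acts with the progesterone receptor in the uterus, fell by 1.37 ± 0.25, Ihh, a ligand that progesterone is known to induce there, by 0.76 ± 0.11, and the glucocorticoid target Tsc22d3 by 0.66 ± 0.13. Fkbp5, Sgk1 and Per1, targets of glucocorticoid and related receptors, had differences of 0.22, 0.17 and 0.07.

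Pgr itself was detected in all 8 samples. It measured 7.50, 7.66, 7.76 and 8.03 at 20 min and 7.34, 7.18, 7.53 and 7.30 at 2 h, so that the highest sample of 2 h, 30o, lay above the lowest of 20 min, 27n. The difference was -0.40 ± 0.12 (limma, adjusted p = 0.0453), and the call was lost without 26n, 12n, 22ob, 6d, 19n or 15o (log2 difference -0.42 to -0.30, adjusted p 0.064 to 0.104). In the controls Pgr had -0.31 and was not called (limma, adjusted p = 0.198).

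**Figure D4:**
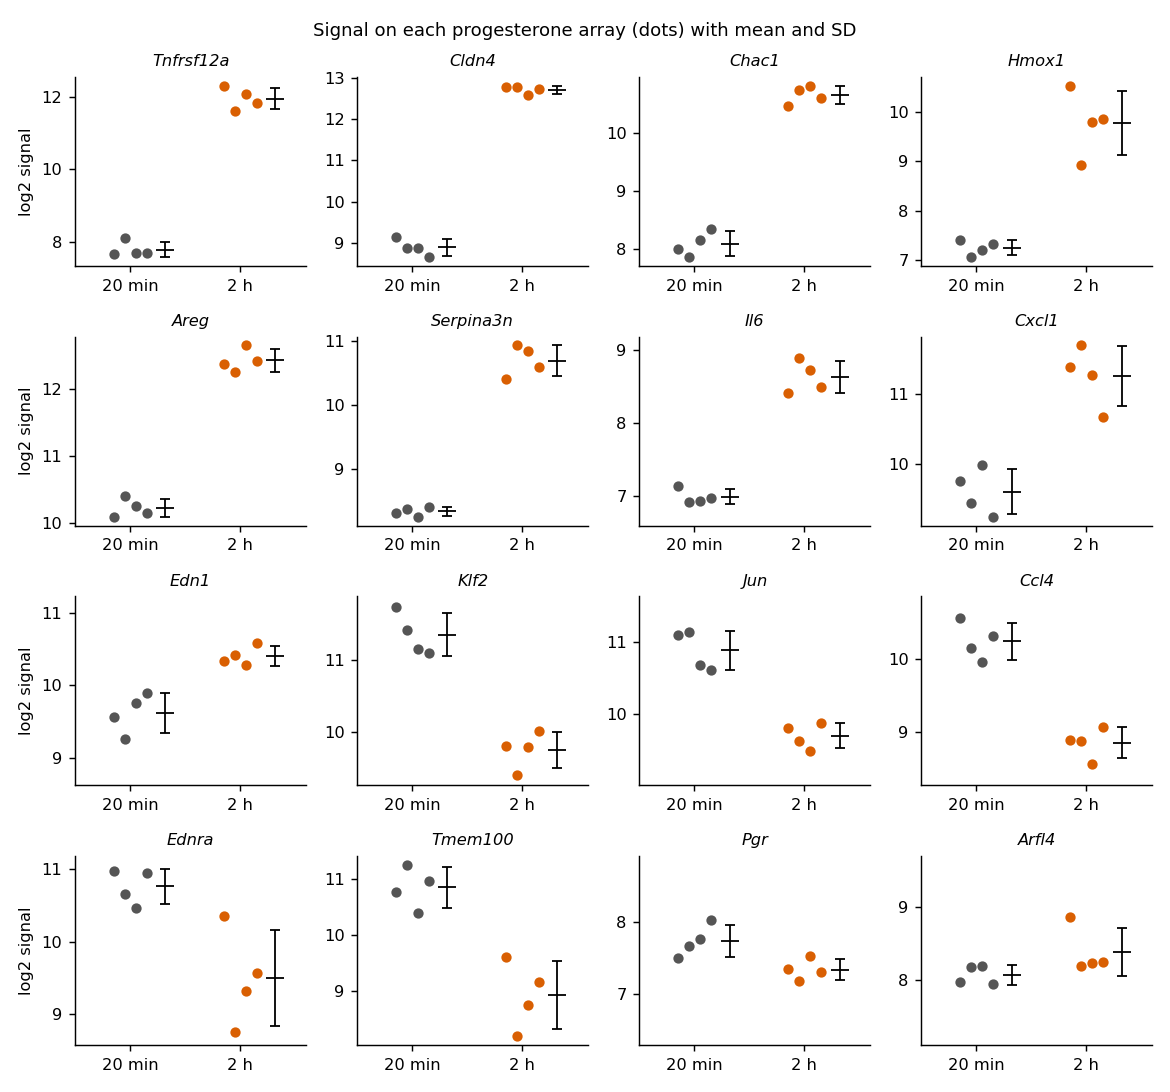
Log2 signal of 16 genes (vertical axis, a separate range for each gene) on the 4 arrays of 20 min (grey) and the 4 of 2 h (orange) of progesterone, with the mean and SD (n = 4). The times are apart for Tnfrsf12a and Tmem100 and overlap for Pgr.

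The endothelins are peptides that contract smooth muscle, and the study followed them as candidates in the control of the tube. Of 7 genes of the system, 2 rose and 1 fell (42.9%, against 16.3% called over all genes). Without 19n, 4 were higher, without 30o, 2 were lower, and when the smooth muscle score was a covariate 4 were higher. Edn1 measured 9.57, 9.26, 9.76 and 9.89 at 20 min and 10.33, 10.41, 10.28 and 10.59 at 2 h. All samples of 2 h lay above those of 20 min, and the rise was 0.79 ± 0.13, or 1.72-fold. Edn2 went from 7.34 to 7.40 at 20 min and 7.86 to 8.67 at 2 h, a rise of 0.77 ± 0.16, with the spread at 2 h far wider than at 20 min. With the stroma score as a covariate Edn2 had 0.69 and was not called (adjusted p = 0.0762), and 3 of the list were higher and 0 lower. Edn3 was detected in 3 samples at 20 min and in 0 at 2 h, and was not called (adjusted p = 0.0608). The converting enzymes Ece1 and Ece2 had 0.27 and -0.06.

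Ednra, the endothelin receptor of smooth muscle, measured 10.97, 10.66, 10.47 and 10.95 at 20 min and 10.35, 8.75, 9.31 and 9.57 at 2 h, and fell by 1.26 ± 0.28. As in the stroma and smooth muscle scores, 6d was the highest and 19n the lowest of 2 h, and with the stroma score as a covariate the difference was -0.56 and not called (adjusted p = 0.137), while with that of smooth muscle it was -0.50 and called (adjusted p = 0.0208). Ednrb, the second receptor, measured 8.81, 9.24, 8.44 and 8.50 at 20 min and 10.71, 8.27, 9.29 and 9.68 at 2 h. Its samples of 2 h ranged from below to above those of 20 min, and the difference of 0.74 (SE 0.42) was not called.

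Of 21 receptors and enzymes of contraction, 1 rose and 3 fell (19%, near the 16.3% called over all genes). Adra2a, an adrenergic receptor, fell by 0.92 ± 0.17, and Hpgd, which degrades prostaglandins, by 0.48 ± 0.10. Gucy1a3, a subunit of the receptor of nitric oxide, had -0.77 ± 0.18, a call lost without 27n, 26n or 30o (log2 difference -0.73 to -0.71, adjusted p 0.057 to 0.0632). Nos3, the endothelial nitric oxide synthase, had 0.55 ± 0.14, a call lost without 26n, 12n, 22ob or 15o (log2 difference 0.50 to 0.57, adjusted p 0.0501 to 0.0636). When the smooth muscle score was a covariate 3 of the list were higher and 0 lower, and with the stroma score 2 and 0. Without 27n, 26n or 30o, 2 were lower, and without 19n 2 were higher. Ptgs2, the inducible cyclooxygenase, was detected on 0 arrays of 20 min and 2 of 2 h and was not called, and Ptgfr, the receptor of prostaglandin F, was not above background on any.

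Of 31 genes of hypoxia and glycolysis, 8 were higher and 1 lower (29%, against 16.3% called over all genes). In the alternative settings 5 to 8 were higher. Ankrd37 and Ddit4 were among them, but lost their calls without 22ob, 19n or 30o, among others (log2 difference 0.30 to 0.45, limma adjusted p 0.0521 to 0.0705). Neither was called with median-centred arrays or with either score as a covariate. Ndrg1, a hypoxia-induced gene, went from 8.29 to 8.76 at 20 min and 10.71 to 10.86 at 2 h, a rise of 2.28 ± 0.10. The oxygen sensor Egln3 rose by 1.64 ± 0.13 and the glucose transporter Slc2a1 by 0.62 ± 0.10, while the glycolytic enzymes Pgk1, Eno1 and Aldoa had differences of 0.08, -0.03 and 0.13. The lower one was the glucose transporter Slc2a3 (-0.30), a call lost without 27n, 22ob, 30o or 15o (log2 difference -0.30 to -0.25, adjusted p 0.0577 to 0.0717); 2 were lower without 6d. Of 11 targets of Notch and BMP, 4 were lower, the inhibitors of differentiation Id1 by 0.71 ± 0.14, Id4 by 0.70 ± 0.12 and Id2 by 0.43 ± 0.09, and the Notch target Hey2 (-0.26), a call lost without 26n, 12n, 22ob, 6d, 19n, 30o or 15o (log2 difference -0.29 to -0.20, adjusted p 0.0607 to 0.117). Hey1, of the same family, rose by 0.48 ± 0.08, which was not called with median-centred arrays. In this list of Notch and BMP targets 45.5% were called, against 16.3% over all genes. Of 17 genes of ribosome biogenesis 3 were higher (17.6%, near the 16.3% called over all genes). These were Gnl3 (0.79 ± 0.10), Nip7 (0.48 ± 0.09) and Nop58 (0.61 ± 0.16, named Nol5 on the array). Nop58 lost its call without 27n, 26n, 12n, 30o or 15o (log2 difference 0.51 to 0.62, adjusted p 0.0597 to 0.0793). With median-centred arrays Nip7, at 0.21, was not called (adjusted p = 0.11), and 1 of the list was higher and 3 lower.

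Of 19 genes of the cell cycle, only Ccnd2, a cyclin of early G1, was called (-0.98 ± 0.17); without 12n, 6d or 15o, 2 of the list were. With median-centred arrays 6 were lower, and with the stroma score as a covariate 0, Ccnd2 then having -0.74 (adjusted p = 0.0597). Of 14 clock genes 2 were lower (14.3%, near the 16.3% called over all genes). Dbp, an output factor of the clock, had -1.03 ± 0.25, with overlapping groups, and its call was lost without 27n, 12n, 22ob, 19n, 30o or 15o (log2 difference -1.04 to -0.88, adjusted p 0.0515 to 0.0621). Per3 was detected on all 4 arrays of 20 min and on none of 2 h, so that 20 min was at least 1.18-fold higher (adjusted p = 0.0107). With the smooth muscle or the stroma score as a covariate Per3 was not called (adjusted p = 0.0665 and 0.0647), and 1 clock gene was higher and 0 lower. Of 12 reference genes 2 fell (16.7%, near the 16.3% called over all genes), B2m by 0.48 ± 0.08 and Gusb by 0.49 ± 0.07. The second probe of B2m gave -0.39 and was called, while the dimmer probes of Gusb gave -0.07 and -0.23 and were not. Gapdh, Hprt1 and Rpl19 had differences of 0.09, 0.11 and 0.19.

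The marker lists of other cell types gave few calls. Of 15 markers of endothelium, the transcription factor Sox17 was lower (-0.67), a call lost without 27n, 12n, 22ob, 30o or 15o (log2 difference -0.65 to -0.59, adjusted p 0.0591 to 0.0717); 3 were lower without 6d and 6 with median-centred arrays. Of 7 markers of mesothelium, the surface lining of the tube, Msln was higher (0.48 ± 0.13), a call lost without 27n, 26n, 12n, 22ob, 19n, 30o or 15o (log2 difference 0.41 to 0.51, adjusted p 0.0576 to 0.0954); without 6d, 3 were called. Of 6 markers of fat, Cidea, a protein of lipid droplets, rose by 1.22 ± 0.12, while leptin, Lep, was detected on 0 arrays of 20 min and 3 of 2 h and was not called.

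In the lists of red cells, ovary, skeletal muscle and nerve, limma called 0 of 5, 6, 8 and 4 tested genes, and 0, 0, 0 and 2 had an unadjusted p under 0.05. The smallest p were those of Ahsp (0.10) and Slc4a1 of red cells, Foxl2 and Cyp11a1 of ovary, Tnni2 (-0.42) and Tnnc2 (-0.19) of skeletal muscle, and Uchl1 (0.21) and S100b (0.33) of nerve and glia. Slc4a1 and Cyp11a1 were not above background on any array of 2 h, and Foxl2 on none of the 8.

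The control samples give the change over the same times without progesterone, on 8 other arrays. The methods of the study state both that each mouse gave one tube to each treatment and that the 6 tubes of a sample came from 3 animals, so whether samples of one code share mice is not settled. In the controls 1911 probes (11.3%) were called. Of the 2524 probes called with progesterone, 1407 were called in the controls too, all with the same sign, which is 55.7% of the former and 73.6% of the control calls. The share was 67.2% of the higher calls with progesterone and 45.2% of the lower ones. Of the 2524, 17 had the opposite sign in the controls.

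Set side by side, Tnfrsf12a rose by 4.17 with progesterone and by 3.92 in the controls, Cldn4 by 3.82 and 4.14, Chac1 by 2.58 and 2.57, and Areg by 2.20 and 2.42. Klf2 had -1.59 and -1.50, and Jun -1.18 and -1.11. Of the endoplasmic reticulum stress genes 10 rose with progesterone and 9 in the controls, and of the NF-kB genes 11 and 12. Tmem100 had -1.92 and -1.53 (adjusted p = 0.0521 in the controls), and Ednra -1.26 and -0.87, the latter not called.

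The difference between the time effects was tested in 1 limma fit with the sample pairs as blocks. Of 16848 probes, 0 (0%) passed an adjusted p of 0.05, 699 had an unadjusted p under 0.05, and the lowest adjusted p was 0.147. The lowest belonged to Arfl4, named as on the array, a member of the ARF family of small GTPases, which measured 7.97, 8.18, 8.19 and 7.94 at 20 min and 8.87, 8.19, 8.23 and 8.24 at 2 h with progesterone. At 2 h 6d stood above the other samples, which lay near the range of 20 min. The time effect was 0.31 with progesterone, not called, and -0.67 in the controls (adjusted p = 0.00159), a difference of 0.98.

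The next smallest p were those of Serpina3n, Tigd2, Rasd1 and Slc25a33. Like Arfl4, they stand on a list of 11 genes that was drawn from these same samples for progesterone against control at the later time. Serpina3n, a secreted inhibitor of serine proteases, measured 8.32, 8.38, 8.25 and 8.41 at 20 min and 10.41, 10.93, 10.84 and 10.60 at 2 h, with the groups 2 log2 units apart. It rose by 2.35 ± 0.11 with progesterone and by 1.74 in the controls, and the difference of 0.61 did not pass (adjusted p = 0.383). Slc25a33, a mitochondrial carrier of pyrimidine nucleotides, went from 8.62 to 9.07 at 20 min and 10.61 to 10.95 at 2 h, a rise of 1.98 ± 0.11 against 1.29 in the controls. Tigd2, which derives from a transposase, had 0.65 ± 0.16 with progesterone, a call lost without 27n, 12n, 22ob, 30o or 15o (log2 difference 0.60 to 0.69, adjusted p 0.0542 to 0.0699), and -0.18 in the controls. Rasd1, a steroid-induced small G protein, had 0.26 and -0.38, neither of them called.

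Of the 11 genes, 5 rose with progesterone and 0 fell, and in the controls 4 rose and 3 fell; these counts are not independent evidence, since the list came from these samples. Cxcl1 rose by 1.65 with progesterone and 0.99 in the controls, and Edn1 by 0.79 and 0.42. Amigo2, a cell adhesion molecule, and P4ha2, a collagen prolyl hydroxylase, had -0.21 and 0.17 with progesterone, and fell by 0.63 and 0.34 in the controls. Irak2, a kinase of interleukin 1 signals, had 0.36 with progesterone, not called, and 0.05 in the controls. A second, dimmer probe of Irak2 had 0.40 with progesterone and was called (limma, adjusted p = 0.0302). Glrx, a glutaredoxin, measured 9.92, 9.98, 9.65 and 9.69 at 20 min and 11.42, 9.88, 10.65 and 10.32 at 2 h, with 6d the highest and 19n within the range of 20 min; its difference was 0.76 (adjusted p = 0.0897), and 0.05 in the controls.

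The promoter of Serpina3n is shown because, of the 105 promoters of genes called at least 2-fold higher, it was the only one to hold the progesterone response element (GNACA, 3 bases of any kind and TGTNC), which 0.331% of the tested genes held on either strand. The match stands in capitals, 78 bases before the start. Without a fold limit, 0.503% of 596 promoters of genes called higher held the element, and 0.723% of 692 of genes called lower. Receptors of glucocorticoids are known to bind the same letters.
Serpina3n, chr12:104406458-104406707, plus strand: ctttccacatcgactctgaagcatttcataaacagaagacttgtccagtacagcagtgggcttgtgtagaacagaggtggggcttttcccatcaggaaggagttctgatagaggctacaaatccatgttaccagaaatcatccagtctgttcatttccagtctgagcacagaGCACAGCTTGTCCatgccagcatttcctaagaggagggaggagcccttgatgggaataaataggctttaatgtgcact

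**Figure D5:**
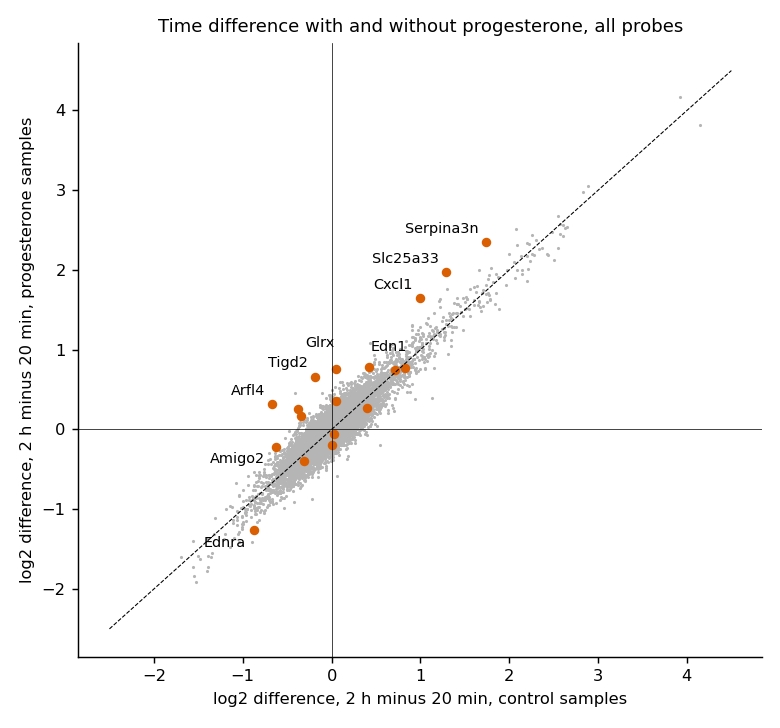
Difference in log2 signal between 2 h and 20 min in the controls (horizontal axis) and with progesterone (vertical axis) for each tested probe (grey); orange points are the 11 listed genes, the endothelin system and Pgr, and the dashed line marks equal values. Serpina3n (1.74 and 2.35), Slc25a33 (1.29 and 1.98) and Arfl4 (-0.67 and 0.31) lie above that line, and no probe passed the test of the difference.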

How the data were processed

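RNA of 16 pooled samples of mouse fallopian tube was measured on 1-colour Illumina MouseRef-8 v2 arrays. The authors summarised the beads in GenomeStudio and deposited the signal intensity of each probe, neither normalised nor background-subtracted, with a detection p-value from the negative controls, also as deposited. The columns left unused numbered 0. Signals were quantile-normalised over 16 arrays and taken to log2 with limma 3.58.1 in R 4.3.3. Probes with a detection p under 0.5 on at least 13 arrays were tested; detected means a p under 0.05. The number of arrays limits the precision.

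Groups followed the labels. Times were compared with lmFit and eBayes over 4 against 4 arrays, Benjamini-Hochberg adjusted over all probes, threshold 0.05. The labels do not tie samples to animals, so p-values measure the spread between pools. Slide and scan date are not given in the sources used here, so a batch that coincides with time cannot be told apart from it. The difference of time effects came from a fit of all 16 samples in which each of the 8 codes was a block; the pairing comes from the study's methods and shared codes, and deviations of paired samples correlated at 0.18 to 0.65 in all pairs but 19n (0.00049). The fits were tested on simulated data, with changes of fixed size added to the progesterone samples of 2 h alone. The simulated noise was independent between samples, so the pairing was not covered.

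The tested probe with the highest mean signal stood for a gene. Of 616 genes in 33 lists, 574 had a probe (19 under an older symbol) and 500 were tested. The genes named are the 10 largest rises and falls without overlap, up to 4 called genes of each list, or 2 of the smallest p, the study's genes, the endothelin system, Pgr and the 5 smallest p of the difference; further list members were named after their values were seen, and some are not reported here. Members and lists were chosen with earlier results of these data known. The alternatives covered normalisation, background correction, filters, moderation, all arrays, the choice of probe, a smooth muscle score and each sample left out; the stroma score and a restriction to probes with a definition were added after seeing the data.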

Additional observations from a re-analysis of the deposited data

Results flagged for a closer look

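Of 270 groups of 4 values examined, 15 held 1 sample far from the other 3 (its gap to the nearest exceeded Dixon's critical share of the range), where chance gives about 1 in 20 groups. At 20 min these were the smooth muscle score of 12n (0.03, the others 0.37 to 0.39), Tnfrsf12a in 26n (8.1, the others 7.66 to 7.7), Mrvi1 in 12n (11.02), Hspb1 in 27n (11.47), Mmp13 in 22ob (7.44), Gbp2 in 12n (9.74), Cdkn1a in 26n (9.89) and Edn3 in 27n (6.96). At 2 h they were Plaur in 19n (9.32), Lcn2 in 15o (12.64, the others 11.9 to 12.02), Cdkn1a in 19n (11.21), the red cell gene Slc4a1 in 15o (6.8), the skeletal muscle gene Tnnc2 in 6d (7.67, the others 6.92 to 7.02), the glial gene S100b in 6d (7.08) and Arfl4 in 6d (8.87, the others 8.19 to 8.24).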

How the results depend on the processing

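With progesterone, median-centred arrays gave 4931 calls (752 higher, 4179 lower), and the stroma score, chosen after seeing the data, 1661 (720 lower); the other settings that kept all samples gave 2010 to 2783. Leaving out 1 sample gave 1696 (without 30o) to 2874 (without 6d) calls, with 773 (without 30o; 858 without 22ob) to 1519 lower and 923 to 1355 higher. In the controls, median-centred arrays gave 550 higher and 1548 lower calls, and leaving out 1 sample 1164 (without 19n; 1268 without 30o) to 1994, with 446 to 924 lower and 718 to 1070 higher (lower without 27n, 26n, 22ob or 30o: 587, 556, 532 and 489). For the difference, moderation with a trend gave 1 call, higher with progesterone, and leaving out 1 pair 0 to 3, the 3 being lower and found without 15o. The marker scores without overlap went from 1 to 2 with median-centred arrays. For the pairing, a replicate block as a random effect over all 16 arrays (correlation 0.262) gave 2783 calls with progesterone and 2722 without the block, and the difference without the block gave 0. For the named probes over all alternatives, 2144 values kept direction and side of the threshold, 129 lost the call, 30 gained it and 5 changed sign, all uncalled: Cyp11a1 from -0.102 to 0.018 on leaving out 1 sample (above 0 without 12n), Tnni2 with the stroma score (0.014), Tnnc2 with the smooth muscle score (0.10) and the stroma score (0.13), and P4ha2 with median-centred arrays (-0.072). The causes were not tested. Arrays give no depth, and probes near the background, such as Bcl3 and Per3, allow only bounds.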
